A study of Mus musculus with 3 samples.

Results

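The GATA factors Gata1, Gata2, Gata3, Gata4, Gata5 and Gata6 were followed on arrays that set mouse embryonic stem (ES) cells against mouse embryonic fibroblasts (MEF). They were the 6 genes whose symbols the array design names as Gata1 to Gata6, out of 27962 gene names on the array. All 10 of their probes were kept, out of 41174 gene probes, and they filled 28 of the 43379 gene spots on each array. The rule takes them by symbol and uses no measured value.

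GATA factors are zinc finger proteins that bind short sites centred on the letters GATA. Gata1, Gata2 and Gata3 form the subgroup best known from blood formation: Gata1 in red cells and megakaryocytes, Gata2 in blood progenitors and mast cells, Gata3 in T cells. Gata4, Gata5 and Gata6 form the subgroup best known from heart and endoderm. In the early embryo Gata6 and Gata4 drive the primitive endoderm fate, Gata2 and Gata3 act in the trophoblast, and forced Gata6 or Gata4 turns ES cells towards primitive endoderm.

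There was 1 group of 3 two-colour Agilent whole mouse genome arrays. Each array carried total RNA of an ES cell replicate labelled with Cy3 (green) and MEF RNA labelled with Cy5 (red). The design text calls the Cy5 sample mix2 where the sample labels call it MEF, and the labels were followed. The ES cells were untreated and grown in 85% Knockout DMEM with 15% serum, 0.1 mM 2-mercaptoethanol and leukemia inhibitory factor, which keeps such cells undifferentiated. The MEF were kept in DMEM with 10% serum. No strain, sex, age, passage or feeder layer is given in the labels used here. The stated aim was to find the expression differences of the ES cells against MEF. The labels do not say whether the ES replicates were separate cultures, so p-values measure only how these arrays vary, and that variation may be technical. The MEF sample was the same on every array by its label, so the spread between MEF cultures is left out. No array had the dyes exchanged, so a dye effect of a single probe and a difference between the cell types cannot be told apart.

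Marker genes were checked against both labels. Pou5f1, Nanog and Sox2, the core pluripotency factors, had mean log2 ratios (ES cells over MEF) of 3.75, 4.02 and 5.79. Col1a1 and Thy1, fibroblast genes, stood at -8.10 and -2.52. The size for Col1a1 varied, from -8.10 to -4.23 over its probes and to -5.34 with the scanner software's processed signals. All 10 macrophage markers tested were also lower in ES cells, with a median log2 ratio of -5.27. Their summed processed signal was 592300 to 631400 in the MEF channel and 13230 to 13870 in the ES channel, so the MEF RNA held strong signals of macrophage genes. Whether any part of the GATA values came from such cells was not tested. In a bulk RNA, fewer cells of a type and less RNA per cell cannot be told apart.

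Probe letters are shown for Gata2 and Gata3, since their ratios rest on these short oligonucleotides. The first 30 of 60 bases of each are given from the array files, 5′ to 3′.
Gata2 A_51_P516625: ctagtacccgcataagagaagaatcggcag
Gata2 A_52_P233441: aactgcataagcttaacccgctgatgagtg
Gata3 A_52_P546363: ataaactagattgctttcagttgacttaag
In the mouse build mm7, which the array files use, these lie at chr6:88281934-88281993 and chr6:88281461-88281520 on the plus strand and at chr2:9796514-9796573 on the minus strand. The 2 Gata2 probes start 473 bases apart and do not overlap. Their exon or UTR position was not determined here.

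**Figure D1:**
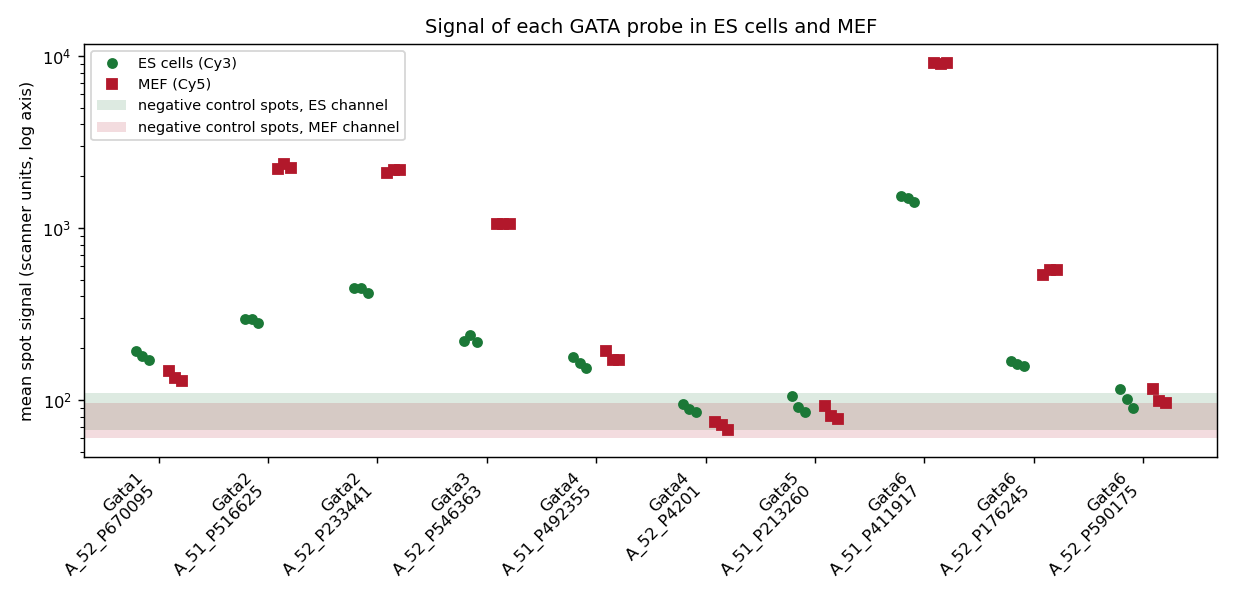
Mean spot signal in scanner units (log axis) of each of the 10 GATA probes on the 3 arrays, ES cells as green circles and MEF as red squares, with bands from the lowest median to the highest 95th percentile of the negative control spots in each channel. The MEF signals of Gata2, Gata3 and 2 of the 3 Gata6 probes lie far above the ES signals, while 3 probes lie within or beside the bands.

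Gata2, Gata3 and Gata6 were lower in ES cells than in MEF, by between 3.72-fold and 8.64-fold. Gata1 and Gata4 gave weak signals of nearly equal size in both cell types, and Gata5 was not detectable in either. Of the 7 GATA probes that could be tested, 5 were called lower, 0 were called higher and 2 were not called. A call needed a 2-fold difference (a log2 ratio of 1 or more in either direction) with an adjusted p below 0.05. Over the array 41.0% of 29500 tested probes were called, 21.1% lower and 19.9% higher, so a call by itself was common. A probe was tested if it was well above its local background on all 3 arrays in at least 1 of the channels. The adjusted p-values below come from limma with Benjamini-Hochberg adjustment over all 29500 probes. Without the fold minimum 95.4% of all probes passed, so the size of a ratio carries more than its p-value.

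Gata2, the factor of blood progenitors and trophoblast, gave the lowest ratio among the 7 tested GATA probes. Its probe A_51_P516625 read 296, 296 and 279 scanner units in ES cells on arrays 1, 2 and 3, and 2206, 2351 and 2226 in MEF. Every MEF signal was thus far above every ES signal. The log2 ratios were -3.07, -3.16 and -3.11, a mean of -3.11 ± 0.047 (SD, n = 3), or 8.64-fold lower in ES cells (limma, adjusted p = 2.75e-07). Only 2.99% of tested probes had a ratio as low or lower.

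The other Gata2 probe, A_52_P233441, read 448, 450 and 420 in ES cells and 2079, 2186 and 2162 in MEF. Here too the channels did not overlap. Its log2 ratios were -2.34, -2.44 and -2.47, with a mean of -2.42 ± 0.065 (SD, n = 3), or 5.34-fold lower (limma, adjusted p = 7.58e-07). Both probes thus gave the same direction with different sizes. The difference between them was 0.721, 0.717 and 0.639 on the 3 arrays, a mean of 0.692 ± 0.0464 on the log2 scale, far above the array spread of either probe. With the scanner software's processed signals the difference was 0.847 ± 0.0646.

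Gata3, the T cell and trophoblast factor, was represented by 1 probe. It read 220, 240 and 217 in ES cells and 1058, 1060 and 1056 in MEF. The groups were well apart. The log2 ratios of -2.42, -2.35 and -2.38 had a mean of -2.38 ± 0.034 (SD, n = 3), which is 5.20-fold lower in ES cells (limma, adjusted p = 2.98e-07). The ES signals were weak but above the negative control spots, whose 95th percentile was 95.2 to 110 in that channel.

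Gata6, the primitive endoderm and heart factor, had 3 probes spread over 30505 bases between the outermost starts, all on the plus strand of chromosome 18 in mm7. The probe furthest along the gene, A_51_P411917 (start 11291591, end 11291649), read 1530, 1500 and 1410 in ES cells and 9122, 9006 and 9039 in MEF. The ES signals were low relative to MEF yet well above background, so Gata6 signal was measured in both cell types. The log2 ratios were -2.76, -2.77 and -2.83, with a mean of -2.79 ± 0.037 (SD, n = 3), or 6.91-fold lower (limma, adjusted p = 2.56e-07).

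The middle Gata6 probe, A_52_P176245 (start 11271063, end 11271122), lies 20528 bases before that probe by its start. It read 169, 161 and 158 in ES cells and 533, 572 and 571 in MEF, again without overlap. Its log2 ratios of -1.81, -1.97 and -1.91 had a mean of -1.90 ± 0.085 (SD, n = 3), or 3.72-fold lower (limma, adjusted p = 2.72e-06). The ratio at A_51_P411917 minus that at A_52_P176245 was -0.958, -0.797 and -0.919 on the 3 arrays. That gap varied with the processing. With the scanner software's processed signals, which differ in background subtraction and in dye normalization, the middle probe gave -2.71 ± 0.054, or 6.52-fold lower, and the gap was -0.020 ± 0.058. With an offset of 0 in place of 50 it was -0.484 ± 0.112, and with no background subtraction the probes stood at -2.79 and -1.90, as far apart as reported. Both Gata6 probes were called lower under each of these.

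The third Gata6 probe, A_52_P590175 (start 11261086, end 11261145), was not well above background in either channel on any array. It read 116, 101 and 89.8 in ES cells and 115, 99.0 and 96.7 in MEF, and was not tested. With 80% G and C it belonged to the 11 probes of the array (0.027%) at or above that share, against a median of 40.0% over all probes. Its log2 ratio was -0.15 ± 0.10 as processed here and -1.20 ± 0.384 with the scanner software's processed signals.

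**Figure D2:**
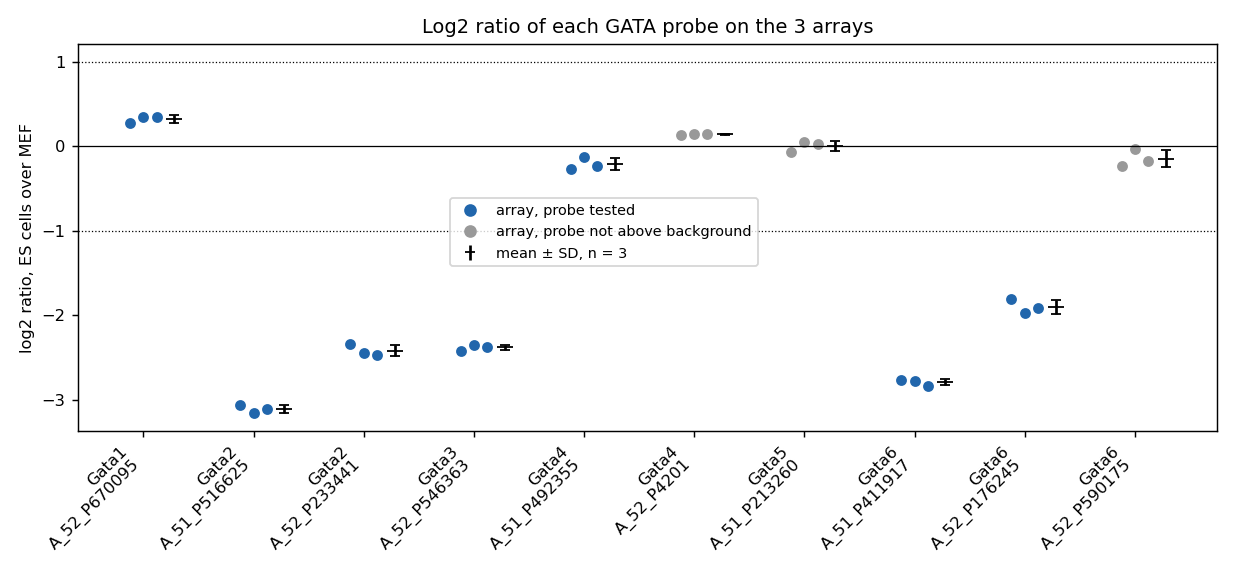
Log2 ratio of ES cells over MEF for each GATA probe on arrays 1, 2 and 3 (points), with mean ± SD beside them (n = 3), dotted lines at the fold minimum of the call and grey points for probes not above background. The 5 called probes lie between -3.16 and -1.81 on every array, and the other 5 lie between the dotted lines.

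Gata1, the factor of red cells and megakaryocytes, was measured by probe A_52_P670095 (mm7 chrX:6392873-6392932, minus strand), spotted 10 times on each array. The spot means were 192, 180 and 172 in ES cells and 147, 134 and 130 in MEF. The ES signals lay above all MEF signals, by a small margin. The log2 ratios were 0.27, 0.35 and 0.34, a mean of 0.32 ± 0.042 (SD, n = 3), or 1.25-fold (limma, adjusted p = 1.59e-04), which is under the fold minimum. The ratio lay at the 61.7th percentile of all tested probes.

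The repeated Gata1 spots show the error within an array. Their log2 ratios had an SD of 0.117 over 8 unflagged spots on array 1, 0.105 over 8 on array 2 and 0.0704 over 9 on array 3. The SD of 0.042 between the array means is not comparable with these, since each mean averages 8 or 9 spots. All unflagged Gata1 spots had a ratio above 0. The same held for the unflagged spots of the Gata4 probe A_52_P4201 (mean 0.14), none of them well above background. A ratio above 0 in every spot thus also occurred without detection. In the ES channel 10 of 10 spots were well above background on each array, while in the MEF channel 9, 8 and 5 of 10 were, so the MEF signal stood near the detection limit. With the scanner software's processed signals the mean was 0.64 ± 0.115, still not called.

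Gata4, the close relative of Gata6, was read by 2 probes whose positions start 414 bases apart on chromosome 14. Probe A_51_P492355 read 177, 165 and 153 in ES cells and 193, 171 and 172 in MEF. The ranges of the cell types overlapped. The log2 ratios of -0.27, -0.13 and -0.23 gave a mean of -0.21 ± 0.075 (SD, n = 3), or 1.16-fold lower (limma, adjusted p = 0.00378), and the probe was not called. The files place only 22 of its 60 bases (mm7 chr14:58062775-58062796), so its match to the build is partial.

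The other Gata4 probe, A_52_P4201 (mm7 chr14:58063189-58063248), also had 10 spots per array, and 0 of 10 were well above background in either channel on any array. It read 94.8, 88.8 and 85.4 in ES cells and 74.6, 71.8 and 66.6 in MEF, each below the 95th percentile of the negative control spots of its array and channel. Only 28.3% of its bases are G or C, against 53.3% for the Gata4 probe that gave a signal. The 2 probes of Gata4 thus disagree on whether the gene was detected at all.

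Gata5, the remaining member of the heart and endoderm subgroup, had 1 probe, A_51_P213260 (mm7 chr2:180826431-180826490, minus strand). It read 105, 91.2 and 84.8 in ES cells and 91.9, 80.6 and 77.8 in MEF. The negative control spots had 95th percentiles of 110, 103 and 95.2 in the ES channel and 87.8, 95.7 and 92.5 in the MEF channel. Gata5 was not well above background on any array in either cell type and was not tested.

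**Figure D3:**
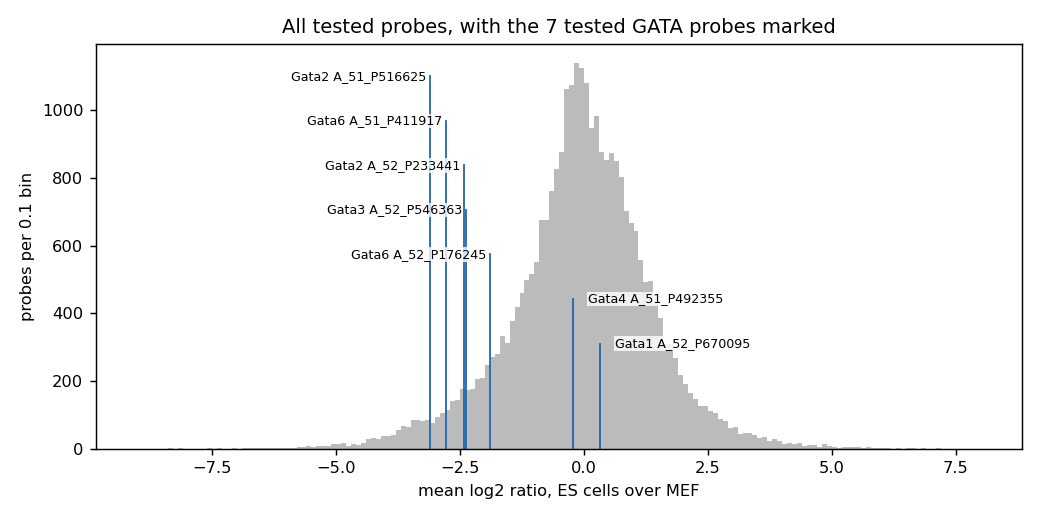
Number of tested probes per 0.1 bin of mean log2 ratio, ES cells over MEF, with a blue line at each of the 7 tested GATA probes (line heights only separate the labels). The 5 called probes lie in the left tail, and the Gata4 and Gata1 lines fall in the bulk near 0.

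By ratio the tested members ran from Gata6 (-2.79), Gata2 (-2.42) and Gata3 (-2.38) through Gata4 (-0.21) to Gata1 (0.32), each by its brightest tested probe. By these probes Gata2 and Gata3 differed by less than the array SD of Gata2 (0.065) but by slightly more than that of Gata3 (0.034). Gata6 stood lowest only by this choice, since the dimmer Gata2 probe gave -3.11. The genes nearest in ratio over the 3 arrays, by root mean square difference, were Bmp1 and Rrad to Gata6 (0.017 each), Enpp2 and Pigc to Gata2 (0.018 and 0.026), and Palld and Calu to Gata3 (0.013 and 0.018). The nearest to Gata1 were TC1514012 and Zfp658 (0.0022 and 0.0087), and to Gata4 NAP054660-1 and Sox19 (0.0070 and 0.013), each named as on the array. Such likeness over 3 arrays of 1 comparison is common: 132 genes lay within 0.1 of Gata6, 182 of Gata2, 186 of Gata3, 958 of Gata1 and 981 of Gata4.

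Promoter sequence was at hand for Gata1, Gata2, Gata3 and Gata5, from RefSeq on build GRCm38.p6. Windows of 250 bases before each start, 2 of them for Gata2, were searched on both strands for the GATA sites AGATAA or TGATAA, and for their forms with G at the end, AGATAG or TGATAG. None of the 5 windows held 1, while 26.5% of all 32851 windows of that length held at least 1. These 5 windows are too few to set them apart from that share. The windows of Gata2, Gata3 and Gata5 were rich in CG dinucleotides, with 22 and 24 in Gata2, 19 in Gata3 and 22 in Gata5 against a median of 6, and the Gata1 window held 2. CG-rich windows thus belonged both to Gata2 and Gata3, which were called lower in ES cells, and to Gata5, which was not detected. Any tie between CG content and the ratios was not tested. The window of the upstream Gata2 start (chr6:88193641-88193890, plus strand) is printed as the example of a CG-rich GATA promoter, with each CG in capitals.
Gata2 upstream window: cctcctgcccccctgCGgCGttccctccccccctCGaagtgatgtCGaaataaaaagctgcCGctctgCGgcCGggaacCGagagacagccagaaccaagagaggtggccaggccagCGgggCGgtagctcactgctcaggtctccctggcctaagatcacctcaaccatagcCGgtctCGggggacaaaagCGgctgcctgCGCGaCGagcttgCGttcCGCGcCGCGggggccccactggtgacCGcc

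Partners of GATA factors were mostly low in ES cells alongside Gata2, Gata3 and Gata6. Of 20 cofactors and complex partners, all tested, 12 were called lower and 0 higher, with a median log2 ratio of -2.10. The count of higher calls became 1 or 2 under 5 alternatives. Over all 19494 genes tested, each by its brightest probe, 22.5% were called lower and 20.4% higher, with a median of -0.050. The lowest were Fli1 at -4.56 ± 0.068 and Lyl1 at -4.45 ± 0.063 (SD, n = 3), both blood and endothelial transcription factors. The FOG proteins, which bind the GATA zinc finger itself, were both called lower, Zfpm2 at -3.21 ± 0.068 and Zfpm1 at -1.24 ± 0.023. Lmo2, the bridging protein of the GATA1 and TAL1 complex, stood at -2.45 ± 0.38, its arrays ranging from -2.69 to -2.01. Its partners Tal1 (-0.39 ± 0.063) and Ldb1 (-0.46 ± 0.026) were not called. Zfpm1, Zfpm2, Lmo2, Tal1 and Ldb1 were singled out after their values were seen, as direct GATA partners. Fli1, Lyl1 and Runx1 are also blood cell genes, and the macrophage markers were lower in ES cells too. The part of such cells in these values was not tested.

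Other proteins with a GATA-type zinc finger were mostly not called. Of 8 tested relatives and NuRD subunits (the repressor complex that holds several of them), 1 was called higher, 1 lower and 6 were not called. Among all genes 20.4% were called higher and 22.5% lower. Mta3, a NuRD subunit, stood at 1.29 ± 0.016 and Trps1, a GATA-type repressor that acts in cartilage and hair development, at -1.23 ± 0.0057 (SD, n = 3). The Trps1 call rests on the brightest of 3 probes, which ranged from -1.23 to 0.75, and was lost with median centring in place of loess (-0.96). The Mta3 call was lost in the mean over its probes (0.72).

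The trophoblast list, where Gata2 and Gata3 are known to act, held higher calls only, while both factors were called lower. Of 11 tested genes 7 were called higher in ES cells and 0 lower, with a median of 1.30. The shares over all genes were 20.4% higher and 22.5% lower. With only probes above background in both channels, 5 genes of the list were called higher. Tfap2c, a trophoblast and germ cell factor, had a log2 ratio of 4.67 ± 0.067. The homeobox gene Esx1 was about 12.6-fold higher, an uncertain size since it was not well above background in MEF. Cdx2, Elf5, Gcm1 and Tpbpa, 4 of the 6 defining trophoblast markers, were not well above background in either cell type on any array. Eomes, another defining marker, was about 4.58-fold higher in ES cells, also without a MEF signal well above background.

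Primitive endoderm genes, the programme of Gata6 and Gata4, held calls in both directions. Of 20 tested, 9 were called lower and 6 higher, with a median of -0.59, beside 22.5% lower and 20.4% higher over all genes. The basement membrane genes Sparc (-5.96 ± 0.033) and Col4a1 (-3.82 ± 0.026), which fibroblasts also express strongly, were lowest. The uptake receptor Lrp2 stood highest among those with a stable sign, at 2.60 ± 0.072 (SD, n = 3). Hnf4a, an endoderm nuclear receptor, gave 2.83 ± 0.24 by a probe not above background in MEF, but its other probe gave -0.18, so its direction is not settled. Without Hnf4a, a count made after its values were seen, 9 of 19 tested genes were called lower and 5 higher. For the full list with Hnf4a, 4 to 6 were called higher over the alternatives, the 4 with array 2 left out. Of the 7 defining primitive endoderm markers other than Hnf4a, 3 were called higher, 2 lower (Dab2 and Pdgfra) and 2 were not called.

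Of 16 tested cardiac genes 6 were called lower and 4 higher (median -0.82), beside 22.5% lower and 20.4% higher over all genes. Actc1, cardiac actin, stood at -4.32 ± 0.052 and the muscle factor Mef2c at -3.84 ± 0.185, while the sarcomere genes Myl7 and Myh7 stood at 3.12 ± 0.142 and 2.03 ± 0.060 (SD, n = 3). Of 6 defining cardiomyocyte markers 3 were called higher, 2 lower (Tnnt2 and Nppa) and 1 was not called. Steroidogenic and gonadal genes, where Gata4 and Gata6 act in the adult, had 5 of 11 called lower and 2 higher (median -0.95). The lowest were Sox9 (-3.47 ± 0.057) and the activin subunit Inhba (-2.17 ± 0.029). The highest was Nr0b1, known as an ES cell regulator too, at 5.90 ± 0.019. Dmrt1, a gonadal factor, was about 3.67-fold higher, without a MEF signal well above background.

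Blood and endothelial genes that GATA factors serve had no common direction. Their counts stand beside 20.4% called higher and 22.5% lower over all genes. Of 10 tested erythroid and megakaryocyte genes, Klf1, an erythroid factor, was called higher (1.40 ± 0.044) and Pf4, a platelet chemokine, lower (-1.65 ± 0.021). Of 11 tested mast cell and progenitor genes 4 were called higher and 3 lower (median 0.017), from Mecom (-3.92 ± 0.057) and Meis1 (-3.62 ± 0.024), progenitor factors, to the receptor Kit (4.17 ± 0.079) and Myb (3.76 ± 0.104). The Myb probe was not above background in MEF, and the mean over all tested Myb probes was 2.24. The defining mast cell markers differed too. Cpa3 was not above background in either channel on any array. Ms4a2 and Tpsb2 were not above it in ES cells on any array, but were in MEF on some array. Hdc, like Kit, was called higher (1.32 ± 0.077), and Fcer1a (-0.35 ± 0.030) was above background in both channels and not called.

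T cell genes, the field of Gata3, had 2 of 8 tested called higher and 0 lower (median -0.086). The shares over all genes were 20.4% higher and 22.5% lower. Called higher were the kinase Lck at 2.36 ± 0.030 and the factor Tcf7 at 2.98 ± 0.021 (SD, n = 3). Of the defining T cell markers other than Lck, Cd3e (-0.22 ± 0.032) and Cd4 (-0.034 ± 0.041) were not called. Cd8a was not above background in either channel on any array. Cd3g was not above it in ES cells, but was in MEF on some array. The count of 0 lower rests on the choice of probe: Maf, singled out after its values were seen, stood at -0.90 by the brightest of its 4 tested probes but at -3.21 in their mean, which adds 1 lower call. Of 13 endothelial genes 6 were called higher and 5 lower (median 0.68). Edn1, endothelin, and Emcn, endomucin, stood at -2.89 ± 0.112 and -2.58 ± 0.28, with Emcn above background in ES cells on 1 of 3 arrays, against 2.86 ± 0.083 for Robo4 and 2.59 ± 0.042 for Pecam1. Cdh5 and Tie1, defining endothelial markers, were not well above background anywhere. Of 12 urogenital, sympathetic and epidermal genes tied to GATA factors 2 were called higher and 3 lower (median -0.26), near the shares over all genes, and 1 was lower with only probes above background in both channels. Esr1, the estrogen receptor, was about 2.40-fold lower, without an ES signal well above background. Elf3 and Phox2a stood at 2.74 ± 0.071 and 1.23 ± 0.049.

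**Figure D4:**
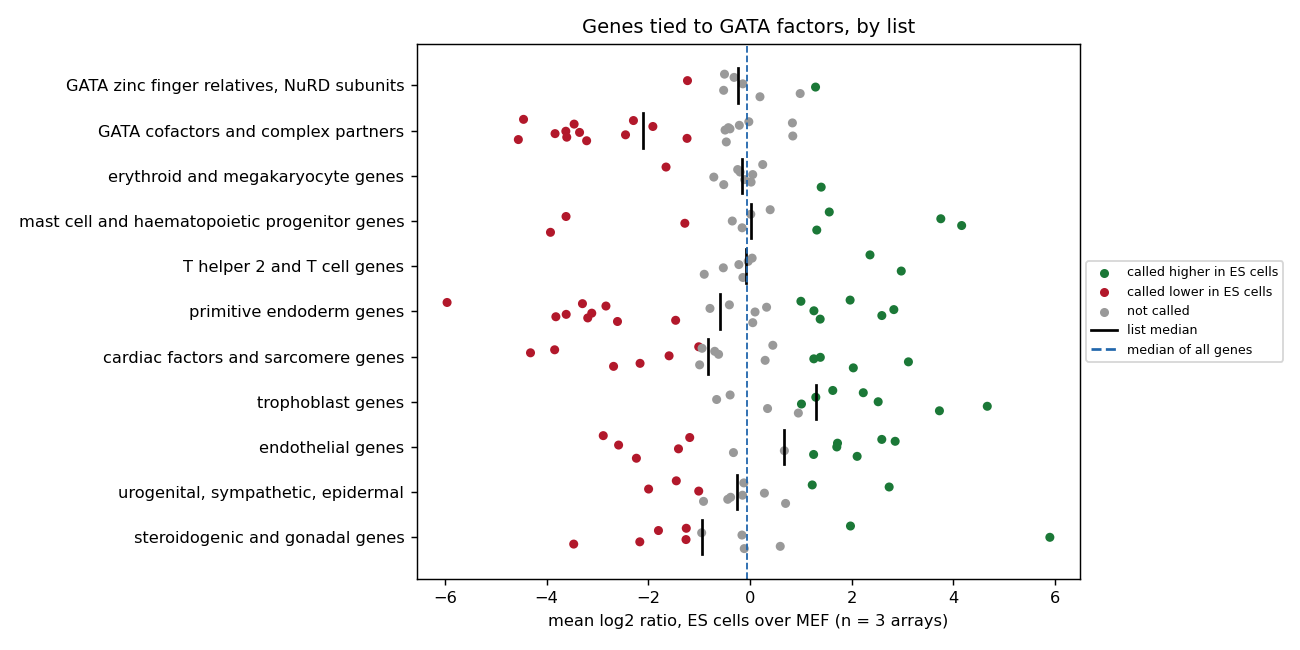
Mean log2 ratio (ES cells over MEF, n = 3 arrays) of each tested gene in 11 lists of genes tied to GATA factors, coloured by call, with the list median in black and the median of all genes as a dashed line; vertical position within a row has no meaning. The cofactor list reaches furthest to the left by its median (-2.10) and the trophoblast list furthest to the right (1.30).

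Under 12 alternatives, which changed the background correction, the normalization, the filters or the arrays used, the same 5 probes of Gata2, Gata3 and Gata6 were called lower and those of Gata1 and Gata4 were not called. Only the fold minimum decided the last of these: without it, Gata1 would be called higher and Gata4 lower. Several of the 12 left the GATA ratios as they were, so they are not 12 separate checks.

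**Figure D5:**
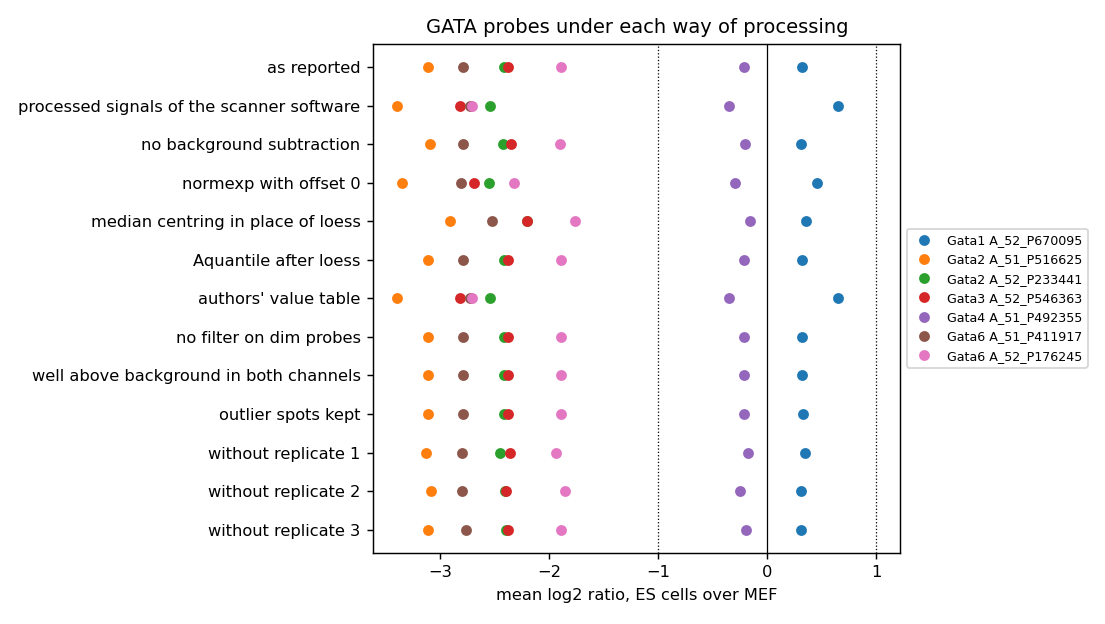
Mean log2 ratio of the 7 tested GATA probes as reported and under 12 other ways of processing, with dotted lines at the fold minimum. The 5 probes of Gata2, Gata3 and Gata6 stay left of -1 in every row, and the Gata6 probe A_52_P176245 moves most, from -1.90 to -2.71 with the processed signals.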

How the data were processed

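RNA of ES cells (green) and MEF (red) was compared on 3 two-colour arrays. Per the file headers, the authors read them with Agilent Feature Extraction 9.5.3.1, and probe coordinates use mm7. The deposited mean and background intensities are raw; the processed intensities and the log10 ratio (MEF over ES cells) are background-subtracted and dye-normalized, per the file headers. The log2 value table deposited by the authors followed the sign-turned log ratio (r = 0.998, 1.00 and 0.999), is not centred (column medians 0.213, 0.0859 and -0.143), and its direction was taken from that match.

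Signals were corrected by normexp (offset 50, which shrinks ratios of dim genes) and loess in limma 3.58.1 (R 4.3.3), turned to ES cells over MEF, and averaged over unflagged spots of a probe. Control spots had weight 0 in the loess. Each probe above background in at least 0.5 of its spots on all 3 arrays in 1 channel was tested against 0 (lmFit, eBayes). A gene in a list stood by its brightest tested probe. Folds given as "about" set the bright group's mean against the dim channel's own level, raised to a floor where it lay below. The floor, per array, was the lowest level of any probe well above background in that channel. Such folds are not strict lower limits. Names came from RefSeq (GRCm38.p6) by accession for 22951 probes and by symbol for 9768; 8455 kept the file's name.

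Median gene spot signals were 398 to 421 (ES cells) and 381 to 391 (MEF), and the number of arrays limits the precision. All arrays lay on 1 slide, so no batch could be tested. Replicate log ratios correlated at 0.998 across probes. On simulated arrays 50, 49, 47 and 50 of 50 probes with true log2 ratios of -3, -1.5, 1.5 and 3 were called with the right sign, and 0 of 29300 unchanged ones. All simulated spots shared 1 small spread, far below the fold minimum, so the absence of false calls was set in advance. Few probes were changed there, against 41.0% called in the data. The simulation thus checks the steps and does not measure the error in these data.

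The members and lists were chosen with earlier results of these data known. Named were all GATA probes, the 2 highest and 2 lowest called genes of each list, label checks and the 2 genes nearest to each member; some genes that the rule takes in are not reported here. Alternatives were processed signals, no background subtraction, offset 0, median centring, Aquantile, the authors' value table, filters, kept outlier spots, each array left out, probe choice and no fold minimum.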

Additional observations from a re-analysis of the deposited data

How the results depend on the processing

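All 7 tested GATA probes kept their sign and their side of the call under 12 alternatives. Aquantile and the changed filters left the log2 ratios of these probes as they were, and kept outlier spots moved only Gata1. The authors' value table gave nearly the same ratios as the processed signals. The ranges were -3.40 to -2.91 and -2.55 to -2.20 for the Gata2 probes, -2.82 to -2.21 for Gata3, -2.81 to -2.53 and -2.71 to -1.76 for the Gata6 probes, -0.35 to -0.16 for Gata4 and 0.31 to 0.65 for Gata1. With no fold minimum 1 GATA probe (Gata1) was called higher and 6 lower (Gata4 added), and with 1 probe per gene 3 were called lower, by construction. Median centring moved the median of all probes from -0.023 to 0.149 and lowered the share of lower calls from 51.55% to 42.62%. Hnf4a reversed, as its other probe stood for it, to -0.25 (processed signals), -0.19 (no background subtraction), -0.23 (offset 0), -0.18 (Aquantile, and both channels), and -0.17 or -0.16 (array 2 or array 3 left out), against 2.94 without array 1. Of values of named list genes, 492 were unchanged in call, 3 lost it and 7 were these reversals. Of the list counts, 296 stayed within 1.5 times and 16 did not: 5 for higher calls among cofactors (0 to 1 or 2), 7 among zinc finger relatives (1 to 0 or 2), and 1 each for mast cell (4 to 2), steroidogenic (2 to 1), urogenital (3 to 1) and T cell genes (0 to 1). No paired analysis was possible because the labels form only 1 group, with nothing to block on; the reported ratio itself sets both RNAs against each other within an array. Signal over background limits Gata1, Gata4, Gata5 and the GC-rich Gata6 probe, which stand near the negative control spots.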
